A study of Mus musculus with 8 samples.

Results

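The genes studied here make, carry, sense or remove retinoic acid, and they were followed in single cells of the mouse cortical stroke lesion: Aldh1a1, Aldh1a2, Aldh1a3, Crabp1, Crabp2, Rarb, Stra6 and Cyp26b1. They were taken by gene symbol, and all 8 of the 8 symbols were among the 21848 genes of the count tables. The cells were those droplets with at least 2000 unique molecular identifiers (UMIs, 1 per captured RNA molecule) and less than 20% mitochondrial UMIs, and 44072 cells remained after doublets had been removed. Of these, 2203 (5.00%) were fibroblast-like, named from collagen and other matrix genes.

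All 8 mice received a photothrombotic stroke (PT), in which light activates an injected dye and closes the cortical vessels of a region 4 mm wide. The 4 ancrod mice carried a minipump that delivered 2.4 U per day of ancrod, a snake venom enzyme that depletes fibrinogen in the blood, and the 4 saline mice carried a pump with the solvent. Pumps were placed 2 days before PT, and the lesion with its margin was dissociated 6 days after it, without sorting and after the overlying meninges had been taken off. The mice were adult, no transgene is named in their labels, and no uninjured mouse was among the samples. By the labels, which give a batch of injury and sequencing, replicates 1 to 3 of each group formed batch 1 while replicate 4 of each formed batch 2. The labels give the genotype as Bl/J6 and the sex as female for all 8, while the methods of the study name young adult C57BL/6N mice of both sexes, and the difference was not settled.

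Retinoic acid is a small lipid hormone made from vitamin A. Retinol reaches cells bound to a carrier protein, enters through the membrane receptor STRA6, is oxidised to retinal by enzymes such as RDH10, and is then oxidised to retinoic acid by the ALDH1A enzymes. CRABP1 and CRABP2 bind retinoic acid in the cytosol, and CRABP2 passes it to the nuclear receptors RARA, RARB and RARG, which act as dimers with the RXR receptors on DNA. CYP26 enzymes degrade it. The meninges are known as a source of retinoic acid for the developing cortex, and Aldh1a2 and Crabp2 serve as genes of the arachnoid and dural layers. Rarb is itself a classic target, because its promoter holds a response element made of a direct repeat of 2 short half-sites.

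That element can be read in the reference sequence, and it is shown because Rarb was the member with UMIs in the largest share of fibroblast-like cells. RefSeq promoter windows of assembly GRCm38.p6, each 300 bases long from 250 before to 50 after a transcript start, matched 6 of the 8 members by symbol. In the Rarb window, chr14:16575427-16575726 on the minus strand, the capitals mark a direct repeat with a spacer of 5 bases, written 5′ to 3′ along the gene:
Rarb: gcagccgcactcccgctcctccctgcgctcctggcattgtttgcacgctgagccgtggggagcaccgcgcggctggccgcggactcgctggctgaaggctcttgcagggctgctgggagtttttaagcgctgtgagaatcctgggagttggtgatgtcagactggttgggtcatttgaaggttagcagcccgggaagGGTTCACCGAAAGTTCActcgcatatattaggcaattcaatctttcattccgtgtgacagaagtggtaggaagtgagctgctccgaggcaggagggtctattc
The search allowed the half-site AGGTCA together with the 3 variants that have G at the start, T after the opening pair of bases, or both, in any pair on both strands and 5 bases apart. A match was in 32 of 32851 windows (0.0974%), and among the 10 windows of the members only that of Rarb held one. Spacers of 1 and of 2 bases, which retinoid receptors also bind, gave no match in a member window, against 0.222% and 0.268% of all windows. Aldh1a3 and Crabp2 had no window and were not searched. Of the other retinoid genes considered here, Cyp26a1, a retinoic acid hydroxylase, held the same kind of repeat, on the opposite strand of its window at chr19:37697558-37697857 (plus strand), shown with its flanks:
Cyp26a1: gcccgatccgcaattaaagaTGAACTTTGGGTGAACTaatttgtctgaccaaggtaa
Cyp26a1 itself was nearly absent from fibroblast-like cells, with a mean of 0.209 CPM (the UMIs of a gene divided by all UMIs of the cells of a class in 1 mouse and scaled up). A match is a stretch of letters and was not tested as a binding site here.

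The genes were spread over 15 cell classes very unequally. Fibroblast-like cells had the highest mean level of 6 of the 8 members, namely Aldh1a2, Aldh1a3, Crabp1, Crabp2, Rarb and Stra6. Aldh1a1 was highest in astrocyte-like cells and Cyp26b1, largely through saline replicate 3, in oligodendrocyte precursor-like cells. Class levels are descriptions, given as the mean over mice with at least 10 cells of the class, and no test was run between classes. Microglia-like cells, the largest class, served as the background: none of the 8 genes exceeded a mean of 0.792 CPM there.

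**Figure D1:**
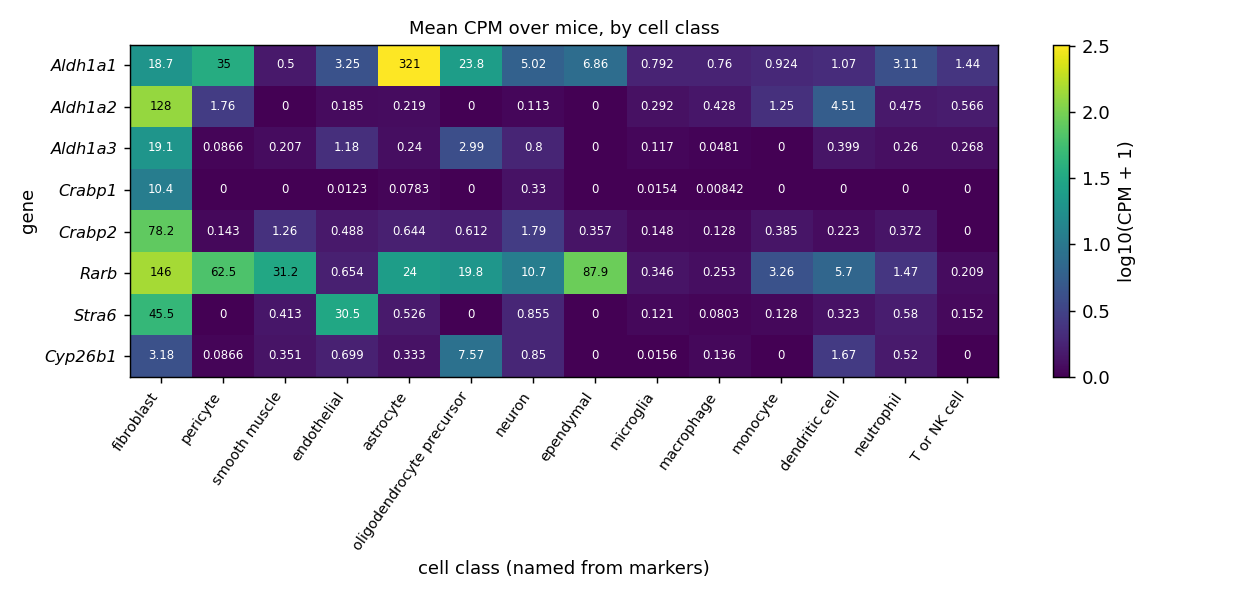
Mean level of each gene (rows) in each cell class (columns), in CPM averaged over mice with at least 10 cells of the class, with the colour on a log10(CPM + 1) scale and the CPM written in each field. The fibroblast column holds the highest value of 6 rows, and the highest value of Aldh1a1 is in astrocytes.

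Aldh1a2, the main retinal dehydrogenase of the meninges, was concentrated in fibroblast-like cells. Its level there was 128 ± 24.98 CPM (SD, n = 8 mice, range 80.3 to 160), and these cells held 97.6% of all its UMIs. The next class, dendritic-like cells, reached 4.51 ± 2.90 CPM (n = 8), and its highest mouse, at 9.95 CPM, lay below the lowest mouse of the fibroblast-like cells. Free RNA, read from droplets with at most 100 UMIs, held Aldh1a2 at 1.07 to 17.7 CPM (median 9.98). Its part in the dendritic-like level was not tested. Among 43 dendritic-like cells with a UMI of at least 2 of Ccr7, Fscn1 and Cacnb3, genes of migratory dendritic cells, 10 had an Aldh1a2 UMI, and among the other 612 it was 33. This division was chosen after the values had been seen. At their own depth 52.4% of fibroblast-like cells had an Aldh1a2 UMI (median 42521 UMIs per cell) against 0.414% of microglia-like cells (median 15393), and after every cell had been thinned to 2000 UMIs the shares were 19.9% and 0.111%.

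Aldh1a3, the third ALDH1A enzyme, averaged 19.1 ± 10.97 CPM in fibroblast-like cells (n = 8), with 87.4% of its UMIs. Oligodendrocyte precursor-like cells followed with 2.99 ± 3.19 CPM over 6 mice, and the ranges of the 2 classes overlapped. Aldh1a1 had another distribution. Astrocyte-like cells carried 321 ± 43.0 CPM (n = 8) and 78.4% of its UMIs, and 73.8% of them had at least 1. Unnamed cells had 48.9 ± 19.8 CPM, pericyte-like cells 35.0 ± 11.4 CPM, oligodendrocyte precursor-like cells 23.8 ± 21.9 CPM over 6 mice and fibroblast-like cells 18.7 ± 4.63 CPM, and the ranges of neighbours in this order overlapped. Aldh1a1 was also the member with the most free RNA, between 15.5 and 69.2 CPM in droplets with at most 100 UMIs. Fibroblast-like levels of Aldh1a1 lay below those of free RNA in every mouse except saline replicate 3, at 16.3 against 15.5 CPM. The means of pericyte-like and oligodendrocyte precursor-like cells also lay below the free RNA median of 40.4 CPM. Microglia-like cells of the same libraries stayed between 0.0416 and 1.30 CPM. The part of free RNA in these levels was not tested.

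The binding proteins, like Aldh1a2, had nearly all their UMIs in fibroblast-like cells. Crabp2, which carries retinoic acid to its receptors, stood at 78.2 ± 26.4 CPM (n = 8) with 97.5% of its UMIs, and no other named class had a mean above 1.79 CPM. Crabp1, which is linked to storage and breakdown of retinoic acid, averaged 10.4 ± 18.0 CPM with 98.0% of its UMIs. Its level differed widely between mice, as described below.

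Of the 8 genes, Rarb was the one found in the largest share of fibroblast-like cells. Fibroblast-like cells had 146 ± 33.7 CPM (n = 8), and 87.3% of them had a UMI, against 0.543% of microglia-like cells. After thinning the shares were 22.4% and 0.0759%. Ependymal-like cells had 87.9 CPM over 2 mice, pericyte-like cells 62.5 ± 21.1, smooth muscle-like cells 31.2 ± 15.2 and astrocyte-like cells 24.0 ± 2.43 CPM, and each of these classes overlapped with its neighbour in the order.

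Stra6, the retinol importer, was shared by fibroblast-like and endothelial-like cells. Fibroblast-like cells had 45.5 ± 6.46 CPM and endothelial-like cells 30.5 ± 12.8 CPM (n = 8 each), and the ranges overlapped, 34.2 to 57.0 against 22.0 to 61.2 CPM. Thinned to equal depth, 6.95% of fibroblast-like and 7.46% of endothelial-like cells had a UMI. Both classes stood far from the next named class, neuron-like cells, at 0.855 CPM. Cyp26b1, which degrades retinoic acid, was sparse everywhere: fibroblast-like cells held 333 UMIs, 61.1% of all, at 3.18 ± 2.05 CPM, and 19 UMIs in 150 oligodendrocyte precursor-like cells gave a mean of 7.57 ± 12.96 CPM over 6 mice. Of these mice, saline replicate 3 was at 33.7 CPM and the others were between 0 and 6.22 CPM, so the mean rests largely on that mouse.

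Genes with the most similar pattern were sought over 60 clusters of at least 30 cells, as the Pearson correlation of log2(CPM + 1). Fibroblast-like cells entered as the subclusters described below. Clusters share libraries and are not independent, so the values are descriptions. Aldh1a2 was followed most closely by Kng1 (r = 0.947), Wif1 and Cdhr1, Crabp2 by Prdm6 (r = 0.952), Sfrp4 and Twist2, and Rarb by Bicc1 (r = 0.947), Gas1 and Lama2. Crabp1 was closest to Chrna1 (r = 0.909), Lrrc15 and Galnt5, Aldh1a3 to Col2a1 (r = 0.825), Slc38a4 and Fst, and Cyp26b1 to Col9a2 (r = 0.745), Pdgfra and Scara5. The Crabp1 pattern rests largely on ancrod replicate 4, which gave 1290 of its 1581 UMIs in fibroblast-like cells. For Stra6 the closest gene was Cdh5, the endothelial cadherin (r = 0.916), ahead of Crispld1 and Cxcl12, and for Aldh1a1 it was Entpd2 (r = 0.902), ahead of A2m and Ephx2.

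Fibroblast-like cells were not uniform in these genes. They were clustered again without the retinoid genes, which gave 12 subclusters that are called here by their leading genes and were not tested against each other. The genes divided them along 3 lines. These were cells with high Aldh1a2 and Rarb, cells with high Crabp2 but little Aldh1a2, and cells with the highest Aldh1a3 and intermediate Crabp2. Stra6 did not separate the last 2 lines clearly. It was at 69.9 and 108 CPM in the subclusters led by Penk and Lsamp and at 59.3 CPM in that led by Lrrc7, where Aldh1a3 was highest.

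**Figure D2:**
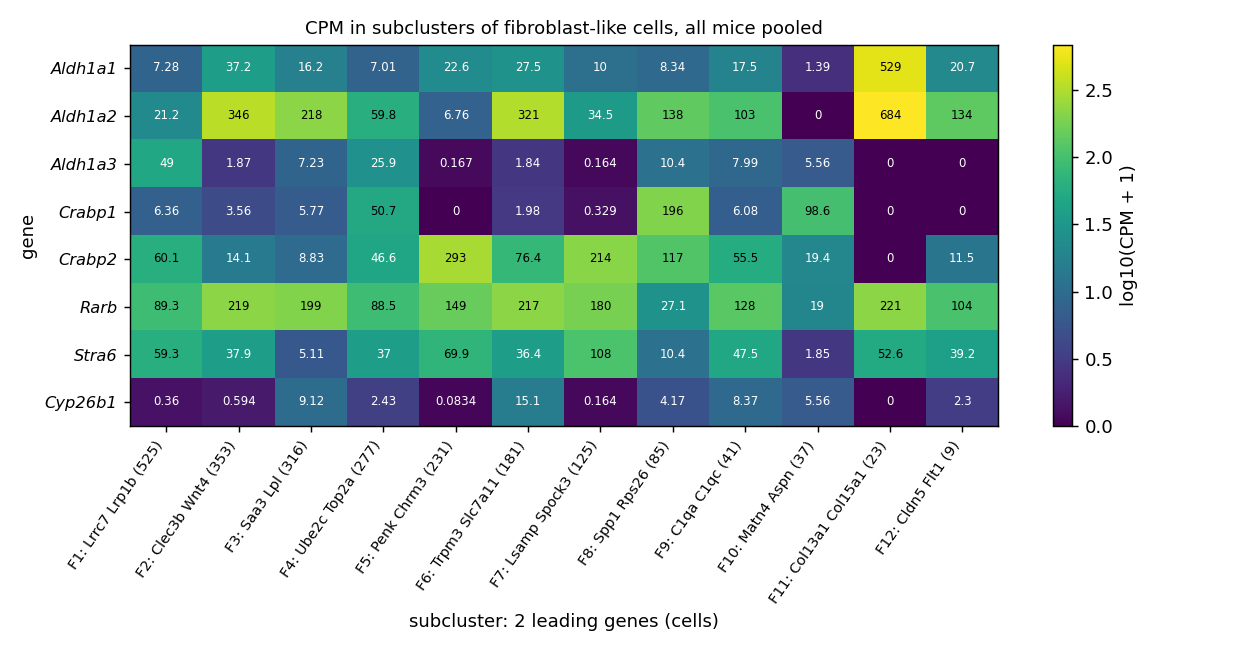
Level of each gene (rows) in 12 subclusters of fibroblast-like cells (columns, with 2 leading genes and the number of cells), in CPM over all mice together, with the colour on a log10(CPM + 1) scale. Aldh1a2 is high in the Clec3b, Saa3, Trpm3 and Col13a1 columns and low in the Penk and Lsamp columns, where Crabp2 is highest.

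Aldh1a2 was highest in the subcluster led by Col13a1 and Col15a1, with 684 CPM, but this held 23 cells with a median of 10021 UMIs. The same 23 cells had 529 CPM of Aldh1a1, and 95.7% of them had an Aldh1a1 UMI. Of 15 meningeal and perivascular fibroblast genes, 4 were highest in these cells. Slc6a13, a GABA transporter of meningeal and perivascular fibroblasts, was at 1518 CPM and Lama1, a basement membrane chain, at 1539 CPM in them, whereas Cldn11, at 3.51 CPM, Mgp, at 266 CPM, and Fxyd5, at 66.6 CPM, were at their lowest of the 12 subclusters. The astrocyte marker Aldoc was at 7.01 CPM, and the other astrocyte markers were not read in these cells. Over all fibroblast-like cells of a mouse Aldoc was at 0 to 26.8 CPM, although the 8 astrocyte markers together summed to 734 to 1223 CPM. Genes of other cells were also present in the 23 cells. Vtn, a pericyte gene, was at 2114 CPM, the highest of the 12 subclusters, and C1qa at 193 CPM. The part of other cells in the levels of the 23 cells was not tested. The Acta2 level, which marks contractile cells, was 3.51 CPM there, the lowest but 1 of the 12 subclusters. These cells came from 6 of the 8 mice, and 16 of the 23 were from saline mice.

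Among larger subclusters, Aldh1a2 stood at 346 CPM in 353 cells led by Clec3b and Wnt4, at 321 CPM in 181 cells led by Trpm3 and Slc7a11, and at 218 CPM in 316 cells led by Saa3 and Lpl. Between 94.3% and 96.2% of the cells of these 3 subclusters had an Aldh1a2 UMI. In the Clec3b subcluster the 7 mice with at least 10 cells lay between 276 and 424 CPM, so the level recurred from mouse to mouse. Rarb was near 200 CPM in the same 3, from 199 to 219 CPM. Rdh10, which makes the retinal that ALDH1A2 uses, was at 125 to 158 CPM in them and at 21.6 CPM in the Penk subcluster.

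The subcluster of 231 cells led by Penk, Ccn3 and Slc47a1 had the opposite pattern. Crabp2 was at 293 CPM and found in 88.7% of its cells, whereas Aldh1a2 was at 6.76 CPM and found in 9.09%. In the 5 mice with at least 10 such cells Crabp2 ranged from 258 to 327 CPM and Aldh1a2 from 2.78 to 17.3 CPM, 2 ranges that were far apart in every mouse. Rarb remained at 149 CPM in this subcluster. The 125 cells led by Lsamp and Spock3 were alike, with Crabp2 at 214 CPM and Aldh1a2 at 34.5 CPM, and they had the highest Stra6 level, 108 CPM. Of the same 15 meningeal and perivascular genes, 5 were highest in the Penk subcluster, among them Slc47a1, Dpp4 and Cdh1 at 393, 43.1 and 91.9 CPM, and 1, Cldn11, a tight junction gene, was highest in the Lsamp subcluster at 683 CPM. The fibroblast name is least firm for these cells: the score of their cluster for choroid plexus markers was 0.761 of its score for fibroblast markers, and in 2 of the 4 other ways of selecting or clustering cells it passed the limit of 0.8, set after the clusters had been seen, and was left unnamed.

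Single cells showed Aldh1a2 and Crabp2 mostly apart. With at least 5 UMIs required, 771 fibroblast-like cells were Aldh1a2-positive and 456 Crabp2-positive, and 67 were both, which is 8.69% of the former and 14.7% of the latter. Aldh1a3 was at this level in 113 cells, of which 7 also had Aldh1a2 and 18 also had Crabp2, the latter 15.9% against 456 of all 2203 cells. At least 5 Rarb UMIs were found in 63.3% of the Aldh1a2-positive and 58.8% of the Crabp2-positive cells, against 1054 of all 2203. These shares depend on the depth of each cell and were not tested.

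Aldh1a3 was highest in the largest subcluster, 525 cells led by Lrrc7 and Lrp1b, at 49.0 CPM and in 43.2% of the cells. Its next level was 25.9 CPM in 277 cells led by the division genes Ube2c and Top2a. Of the 6 myofibroblast genes considered, Acta2 was at 564 and 890 CPM in these subclusters and Cthrc1, a gene of matrix-producing fibroblasts, at 912 and 796 CPM. Neither subcluster had the highest level of any of the 6: 5 of them peaked in the Matn4 subcluster, where Aldh1a3 was at 5.56 CPM, and Postn peaked in the Clec3b subcluster at 890 CPM. In the Penk, Lsamp, Clec3b and Trpm3 subclusters Aldh1a3 did not exceed 1.87 CPM. Cyp26b1 was found mainly in the Trpm3 (15.1 CPM) and Saa3 (9.12 CPM) subclusters, both rich in Aldh1a2. In the Trpm3 subcluster 45 of its 107 UMIs came from 1 cell of ancrod replicate 4, so that level rests largely on this cell.

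Crabp1 was the most uneven member. Of its 1581 UMIs in fibroblast-like cells, 1290 came from ancrod replicate 4, where 83 of 499 cells had one. The division-gene subcluster held 60.8% of all Crabp1 UMIs, and 904 of its 962 came from this mouse. A further 13.5% lay in 37 cells led by Matn4, Aspn and Acan, genes of cartilage and tendon matrix, and all 37 came from ancrod replicate 4. These 37 cells had 0 Aldh1a2 UMIs, Rarb at 18.98 CPM, the lowest of the 12 subclusters, and Acta2 at 2474 CPM, the highest. The 85 cells led by Spp1 and Rps26 had a median of only 3588 UMIs, and their Crabp1 level of 196 CPM rested on 5 cells.

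A pair of small subclusters carried RNA of other cells. Macrophage and microglia genes such as C1qa led 41 cells, with 1438 CPM of C1qa, and endothelial genes such as Cldn5 led 9. They were left in the fibroblast-like cells, and the edgeR comparison of fibroblast-like cells was also run without them, which called no member. Over all fibroblast-like cells of a mouse, 7 microglia markers summed to 170 to 296 CPM in saline and 202 to 239 CPM in ancrod mice, 7 endothelial markers to 159 to 221 and 142 to 175 CPM, and 8 macrophage markers to 39.4 to 59.5 and 43.0 to 120 CPM. Smooth muscle markers summed to 10.1 to 23.0 CPM in saline and 19.6 to 70.0 CPM in ancrod mice, monocyte markers to 383 to 548 and 273 to 398 CPM, and neuron markers to 5.71 to 8.22 and 9.38 to 16.1 CPM, the last without overlap. The largest sums for another class were those of 8 astrocyte markers, 734 to 1222 CPM in saline and 749 to 1223 CPM in ancrod mice. Pericyte markers summed to 204 to 384 and 158 to 268 CPM. The 8 fibroblast markers themselves summed to 26965 to 36254 CPM in saline and 21795 to 27682 CPM in ancrod mice. No marker of these lists was at 0 over all fibroblast-like cells of both groups together, and their part in the results was not tested.

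Whether fibrinogen depletion moved these genes was asked with 4 mice against 4, on UMIs summed per mouse over fibroblast-like cells, with the quasi-likelihood test of edgeR and Benjamini-Hochberg adjustment over all 12723 genes that passed the filter on low counts. All 8 members passed the filter and none was called at an adjusted p under 0.05. The background was as sparse: 1 gene (0.00786%) was called. With the DESeq2 Wald test 0 members were called against 1.41% of genes, and 4 members had an unadjusted p under 0.05 against 1729 of 12723 genes. With edgeR at an unadjusted p under 0.05 it was 3 of the 8 members against 15.2% of all genes, namely Crabp1, Crabp2 and Aldh1a2. This count was 1 without saline replicate 1, against 1176 of 13104 genes. It was 2 without ancrod replicate 2 (1294 of 13061 genes), without ancrod replicate 4 (1548 of 12650) and in batch 1 only (1645 of 12532). The count was also 2 without the subclusters led by C1qa or Cldn5 (1780 of 12615) and without those led by Slc47a1 or Spock3 (2194 of 12397). It was 4 without ancrod replicate 3 (2045 of 12638) and 5 with batch as a term (2190 of 12723). The groups of no member were free of overlap, while those of 8.13% of all genes were.

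The number of fibroblast-like cells behind each value differed. Saline replicates 1 to 4 gave 215, 170, 22 and 228 cells and ancrod replicates 1 to 4 gave 339, 109, 621 and 499. Saline replicate 3, with 0.369% of its cells fibroblast-like, therefore rests on few cells, and its values carry the largest counting error. As shares of all kept cells, the other saline mice had 3.20% to 4.30% and the ancrod mice 1.94% to 10.6%.

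**Figure D3:**
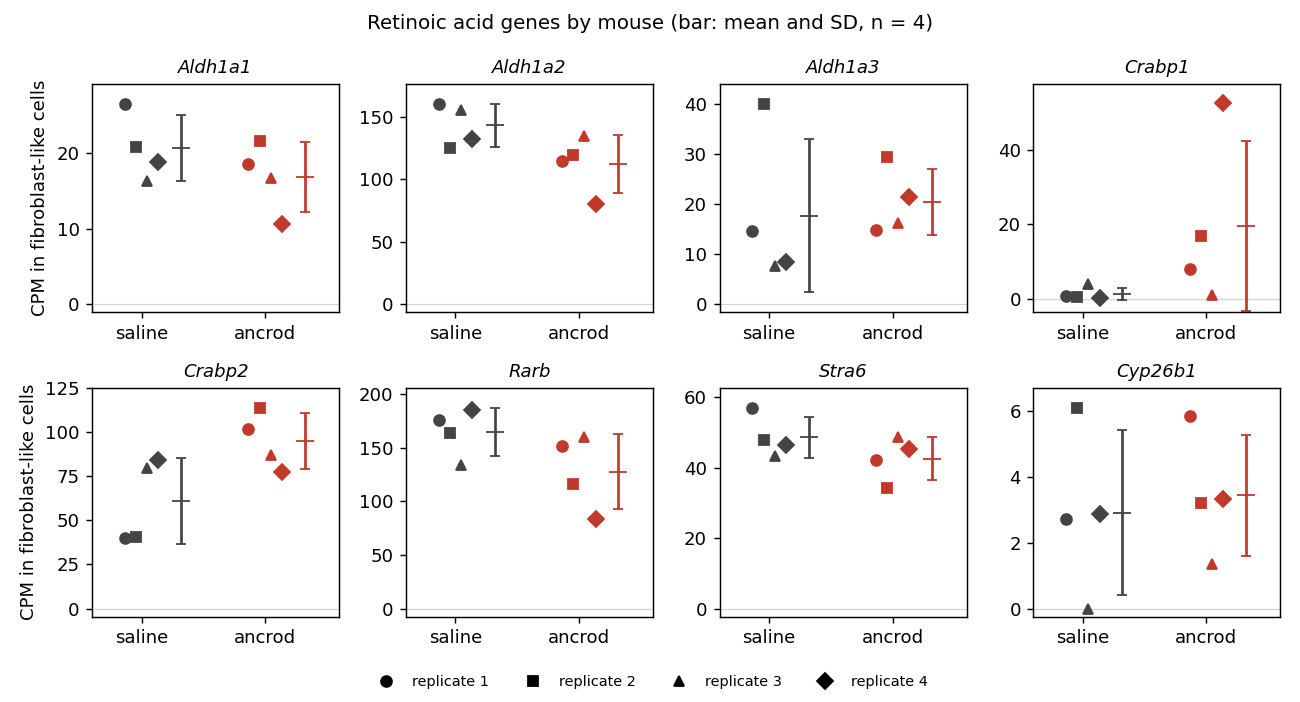
Level of each gene in the fibroblast-like cells of every mouse, in CPM on a linear axis, with saline in grey and ancrod in red, 1 symbol per replicate number, and the mean with SD (n = 4) beside the points. The groups overlap in all 8 panels, and Crabp1 shows 1 ancrod mouse at 52.7 CPM.

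Aldh1a2 measured 160, 125, 156 and 132 CPM in saline replicates 1 to 4 and 115, 120, 135 and 80.3 CPM in ancrod replicates 1 to 4. In 3 ancrod mice Aldh1a2 lay below every saline mouse, and ancrod replicate 3 lay among the saline mice. Over all fibroblast-like cells the log2 fold change was -0.35 ± 0.14 (SE) with an adjusted p of 0.298. Within the Clec3b, Saa3 and Trpm3 subclusters, rich in Aldh1a2, the groups overlapped over mice with at least 10 cells. Saline mice were at 276 to 349, 169 to 239 and 211 to 324 CPM in the 3. Ancrod mice were at 292 to 424, 202 to 284 and 294 to 424 CPM. These levels were not tested. Aldh1a1 was at 26.5, 20.9, 16.3 and 18.8 CPM in saline and 18.6, 21.5, 16.7 and 10.6 CPM in ancrod mice, and the groups were mixed apart from the highest and the lowest mouse. Its log2 fold change was -0.36 ± 0.20 (adjusted p = 0.432).

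Aldh1a3 showed the spread within each group more than a difference between them. Saline mice had 14.7, 40.0, 7.68 and 8.41 CPM and ancrod mice 14.8, 29.5, 16.3 and 21.4 CPM. Its log2 fold change was 0.07 ± 0.46 (adjusted p = 0.981), and leaving out saline replicate 2, the highest mouse, raised it to 0.92 with an adjusted p of 0.245.

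Rarb was at 176, 163, 133 and 185 CPM in saline mice and 151, 116, 160 and 83.4 CPM in ancrod mice. Rarb in 2 ancrod mice was below all saline mice, and in 2 it was within their range. The log2 fold change was -0.38 ± 0.18 (adjusted p = 0.344). Stra6 lay at 57.0, 47.7, 43.2 and 46.3 CPM in saline and 42.2, 34.2, 48.6 and 45.2 CPM in ancrod mice, with a log2 fold change of -0.20 ± 0.13 (adjusted p = 0.503).

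Crabp2 was at 39.8, 40.5, 79.7 and 84.4 CPM in saline mice and at 102, 114, 87.3 and 77.6 CPM in ancrod mice. The saline mice formed a low and a high pair, and ancrod replicate 4 lay below the high pair. Its log2 fold change was 0.67 ± 0.25 with an adjusted p of 0.270. The share of fibroblast-like cells in the Penk and Lsamp subclusters, where Crabp2 is highest, also differed between mice. It was 4.19% and 4.71% in saline replicates 1 and 2. Saline replicates 3 and 4 had 22.7% (5 of 22 cells) and 20.2%, and the ancrod mice 16.0% to 27.5%. Ancrod replicate 3, at 17.4%, had a smaller share than saline replicates 3 and 4 but a higher Crabp2 level. The part of these shares in the Crabp2 levels was not tested. Without the Penk and Lsamp subclusters the log2 fold change was 0.35 (adjusted p = 0.347), an alternative added after seeing the data. It was 1.20 without dividing cells (adjusted p = 0.161) and 1.04 in batch 1 only (adjusted p = 0.165).

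Crabp1 had 0.714, 0.426, 3.84 and 0.0955 CPM in saline mice, which is 13 UMIs in 635 cells, and 8.12, 16.9, 0.869 and 52.7 CPM in ancrod mice, which is 1568 UMIs in 1568 cells. Ancrod replicate 3 lay within the saline range although it had the most cells. The log2 fold change was 5.22 ± 1.44 with an adjusted p of 0.218, and without ancrod replicate 4 it was 3.83 (adjusted p = 0.293). The share of fibroblast-like cells in the division-gene subcluster was 21.8% in ancrod replicate 4 and 6.51% to 16.5% in the other 7 mice. Without dividing cells the log2 fold change was 3.70 (adjusted p = 0.25), and without the Matn4 subcluster 5.12 (adjusted p = 0.213).

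Cyp26b1 was at 2.71, 6.11, 0 and 2.87 CPM in saline mice and 5.86, 3.22, 1.36 and 3.35 CPM in ancrod mice. These levels rest on 333 UMIs in all, with 0 in the 22 cells of saline replicate 3, and the groups overlapped. Its log2 fold change was -0.03 ± 0.53 (adjusted p = 0.995).

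**Figure D4:**
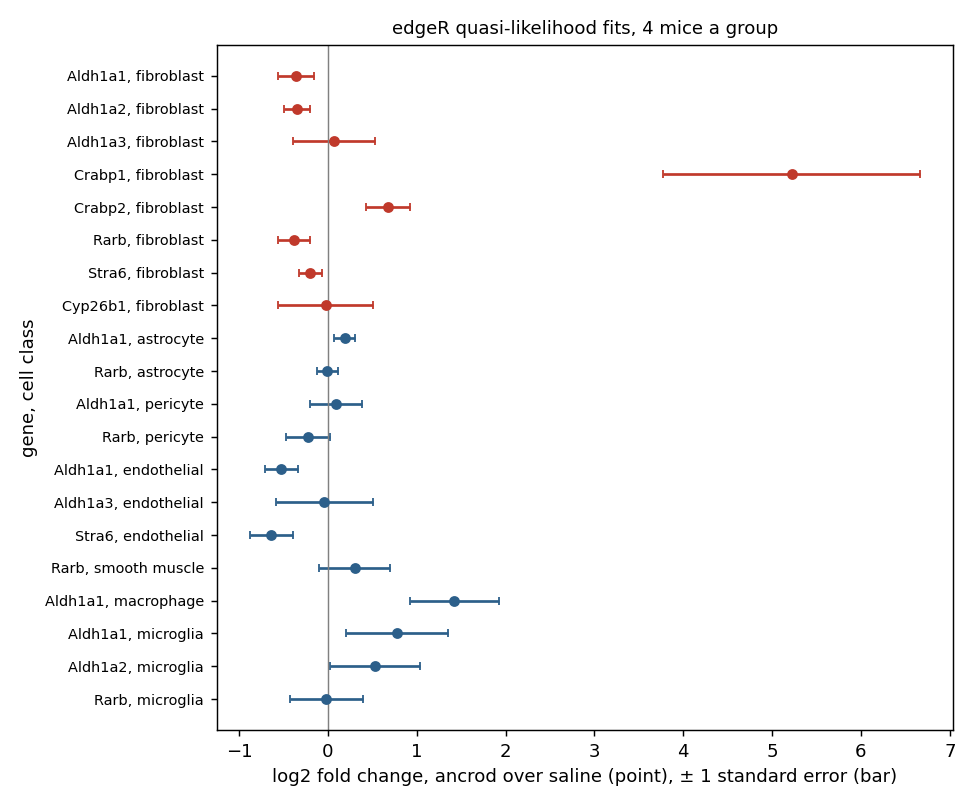
Log2 fold change of ancrod over saline (points) with 1 standard error to each side (bars) for the 8 genes in fibroblast-like cells (red) and for the members that could be tested in 6 other classes (blue). Crabp1 in fibroblasts has the largest value, 5.22, and the widest bar.

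In 6 other classes at least 1 member passed the filter, and edgeR called no member in any of them. At an unadjusted p under 0.05 there were 2 of the 3 members tested in endothelial-like cells, Stra6 and Aldh1a1, against 1051 of all 12689 genes. In macrophage-like cells it was the 1 member tested, Aldh1a1, against 405 of 11678 genes. The log2 fold change of Aldh1a1 in macrophage-like cells was 1.42 ± 0.50 (adjusted p = 1.00), from 94 UMIs at means of 0.421 CPM in saline and 1.098 CPM in ancrod mice, levels close to the microglia-like background and below free RNA. The share of all genes called was 0% in astrocyte-like, 0% in endothelial-like and 0% in smooth muscle-like cells, 0.00856% in macrophage-like, 0.00761% in microglia-like and 0.0887% in pericyte-like cells. The single genes behind the counts in macrophage-like and microglia-like cells were Nrg1 and Cplx2, named after their values were seen. In astrocyte-like cells, the main Aldh1a1 class, saline mice had 300, 280, 288 and 336 CPM and ancrod mice 380, 364, 354 and 265 CPM. Of the ancrod mice, 3 were above and 1 was below all saline mice, and the log2 fold change was 0.19 ± 0.12 (adjusted p = 1.00). Rarb in pericyte-like cells had a log2 fold change of -0.23 ± 0.24 (adjusted p = 0.819).

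In endothelial-like cells the groups did not overlap for Stra6 and Aldh1a1, as was the case for 3.7% of the genes tested there. Stra6 was at 29.4, 29.5, 61.2 and 28.2 CPM in saline and 22.2, 22.0, 27.8 and 23.8 CPM in ancrod mice. Saline replicate 3 stood far above the rest: with it the log2 fold change was -0.63 ± 0.24 (adjusted p = 0.592) and without it -0.29 (adjusted p = 0.567). Aldh1a1 was at 3.98, 3.47, 3.69 and 4.17 CPM in saline and 2.95, 2.89, 2.90 and 1.96 CPM in ancrod mice, with a log2 fold change of -0.52 ± 0.19 (adjusted p = 0.592). These Aldh1a1 levels lie below those of free RNA in the same libraries, which ranged from 15.5 to 46.5 CPM in saline and 27.8 to 69.2 CPM in ancrod mice, and the part of free RNA in them was not tested.

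The rest of the pathway was read from a list of 25 further genes, all found in the tables. Of these, 17 passed the filter in fibroblast-like cells and 0 were called, with a median log2 fold change of -0.15 against -0.11 for the 8 members and -0.01 for all genes tested. Among the supply and storage genes, Rbp4, the carrier of retinol in blood, was at 9.26 ± 3.42 CPM (n = 8 mice), the highest mean of any class for this gene, and its log2 fold change was 0.34 ± 0.28 (adjusted p = 0.592).

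Of the 7 enzymes of retinol oxidation and reduction, 5 passed the filter and 0 were called. Rdh10 was at 96.2 ± 25.5 CPM and Dhrs3, which turns retinal back to retinol, at 81.7 ± 23.0 CPM. Of the 5 further receptors, 4 were tested, with Rara at 38.7 ± 5.75 and Rxrb at 26.0 ± 2.53 CPM, while Rxrg was at 0.0999 CPM. Fabp5, which can carry retinoic acid to another nuclear receptor, was at 1195 ± 383 CPM and higher in macrophage-like cells, at 2307 CPM. Of the 4 genes listed as responsive to retinoic acid, Nrip1 was at 114 ± 12.01 and Rarres2 at 57.7 ± 19.3 CPM, and none of the 4 was called. The clearance enzymes Cyp26a1 and Cyp26c1 did not pass the filter. Free RNA held Dhrs3 at a median of 89.3 CPM, Fabp5 at 1161 CPM and Rxrb at 22.6 CPM, close to or above the fibroblast-like levels of these genes, and its part in them was not tested.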

How the data were processed

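Cells of the lesion were profiled with 10x Genomics 3′ chemistry, 1 library per mouse. The authors aligned reads with Cell Ranger 7.1.0 to GRCm39 and deposited raw UMI counts of all droplets, which were whole numbers. Each library held 97861434 to 142139441 UMIs. Of 46216 droplets that met the limits, 2144 were removed as doublets, those with the highest share of simulated doublets among their neighbours (a reimplementation of the Scrublet score), at an assumed rate of 0.8% per 1000 cells. Libraries shared at most 14 barcodes. Clustering used 3000 variable genes without the retinoid and mitochondrial genes, 30 components, 20 neighbours and Leiden resolution 2. Clusters were named from marker scores, and 4708 cells stayed unnamed. Fibroblast-like cells were clustered again at resolution 0.8.

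Counts summed per mouse were tested with edgeR 4.0.16 (filterByExpr, TMM, glmQLFit and glmQLFTest) without covariates, and DESeq2 1.42.0 as an alternative, both tested on simulated data. Same-numbered mice did not deviate together. The text names the members, the retinoid genes that were called or among the 2 highest of their role in fibroblast-like cells, and the 3 genes most like each member. Some genes this rule would name are not reported here. The members and lists were chosen with earlier results of these data known. The limits that left clusters unnamed were chosen with the clusters in view. Where nothing else is stated, SD covers the spread between mice. The SE of a log2 fold change was worked back from the edgeR test, as its size divided by the square root of the F statistic.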

Additional observations from a re-analysis of the deposited data

Results flagged for a closer look

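A mouse stood apart from the other 3 of its group in 3 of the 42 sets of 4 mice examined, by the gap to its nearest neighbour relative to the range, and chance gives about 1 in 20. In endothelial-like cells Stra6 was at 61.2 CPM in saline replicate 3 against 28.2 to 29.5 CPM in the other saline mice. Aldh1a1 was at 1.96 CPM in the endothelial-like cells of ancrod replicate 4 against 2.89 to 2.95 CPM in the other ancrod mice. Crabp1 was at 3.84 CPM in the fibroblast-like cells of saline replicate 3 against 0.0955 to 0.714 CPM, which rests on 4 UMIs in 22 cells.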

How the results depend on the processing

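No member was called in fibroblast-like cells under any of 23 alternatives, or in the 6 other classes under any of 14. With the DESeq2 Wald test in pericyte-like cells, the 2 members tested, Rarb and Aldh1a1, received no adjusted p and could not be called. The number of all genes called in fibroblast-like cells was 1, and it was 180 with the DESeq2 Wald test, 20 in batch 1 only, 3 with a mitochondrial share under 30%, 2 without dividing cells and 3 without the subclusters led by Slc47a1 or Spock3. Leaving out 1 mouse at a time gave 1 to 19 genes, with 10 without saline replicate 4 and 19 without ancrod replicate 3. Mice with the same number did not deviate together (correlations from -0.12 to 0.03 over 4 pairs, and 0 of 4 saline mice were closest to their own number), and with the replicate block 2 genes were called. In pericyte-like cells the 8 genes called became 62 with DESeq2, 116 without the filter, 50 with a batch term, 92 with the replicate block, 74 in batch 1 only and 2 to 62 without 1 mouse. With DESeq2 the 0 genes called became 16 in endothelial-like and 1 in astrocyte-like cells. Without the filter the 0 genes called in smooth muscle-like cells became 4. The causes were not tested.

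Directions of Aldh1a1, Aldh1a2, Crabp1, Crabp2 and Rarb kept their sign in all 23 alternatives, with log2 fold changes of -0.46 to -0.20, -0.43 to -0.12, 3.21 to 5.75, 0.35 to 1.20 and -0.57 to -0.15. Aldh1a3, at 0.07, was -0.33 in batch 1 only, -0.0207 without doublet removal, -0.0306 without dividing cells and -0.24 to 0.92 without 1 mouse. Cyp26b1, at -0.03, was 0.0732 with DESeq2, 0.27 with the replicate block, 0.10 with a mitochondrial share under 30%, 0.26 without doublet removal, 0.13 without the subclusters led by Slc47a1 or Spock3 and -0.39 to 0.50 without 1 mouse. Stra6, at -0.20, was 0.0708 without dividing cells, -0.46 without doublet removal, -0.42 without the subclusters led by Slc47a1 or Spock3, -0.33 with a mitochondrial share under 30% and -0.25 to -0.09 without 1 mouse.

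Fibroblast-like cells kept the highest level of 6 members, or 7 without doublet removal, where no oligodendrocyte precursor-like class, the highest for Cyp26b1, was named. The mean Crabp2 level was 40.3 CPM without doublet removal against 78.2, where the Penk cluster stayed unnamed, and 52.3 CPM with a mitochondrial share under 30%, where it did too. Saline replicate 3 gave only 22 fibroblast-like cells, which limits the depth of its values. Adjusted p of Crabp1 ranged from 0.0659 to 0.534 over the alternatives.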
